A study of Rattus norvegicus with 8 samples.

Results

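The genes described here encode the proteins of the cytosolic ribosome. They were taken by name: symbols of the form Rpl or Rps with a number and an optional a, x, y or l ending, Rplp0 to Rplp2, and Rpsa. Of 17168 genes listed for each library, 81 matched, and the 79 with a mean expected count (the estimated number of reads from a gene) of 10 or more over the 8 libraries are the members, 47 of the large and 32 of the small subunit. The paralogs Rpl3l and Rpl39l, with mean expected counts of 2.75 and 1.13, were left out by that minimum. RNA came from medial prefrontal cortex homogenate of male Sprague-Dawley rats, with 4 libraries each from animals high (HI) and low (LI) in motor impulsivity. HI rats were in the upper quartile and LI rats in the lower quartile of premature responses in a 1-choice serial reaction time task, which scores how well a rat withholds a response until its cue. The labels name no drug, allele or age for either group, and do not say that each library is a separate animal, so p-values measure the spread between these libraries. The design asks which transcripts differ between the 2 ends of this trait.

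A ribosome is built from a large and a small subunit, each a scaffold of ribosomal RNA covered by proteins that are needed in about equal numbers. The small subunit reads the messenger RNA, while the large subunit joins amino acids and threads the new chain through its exit tunnel. Messenger RNAs of ribosomal proteins are short and abundant, and most begin with a C followed by a run of C and T, the terminal oligopyrimidine tract, through which the kinase mTOR controls their translation.

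Start sites of some members are shown because a run of C and T there was more frequent among them than among all genes. RefSeq (GRCr8) gave a window of 250 bases before and 50 bases from the annotated start for 61 of the 79 members. A run of at least 5 C or T lay over the start in 60.7% of these 61 windows and in 4002 of the 33465 windows of all genes. A C at the start itself, followed by at least 4 C or T, was found in 37.7% of the members and 2.63% of all windows. The sequences below run from 40 bases before the annotated start to 20 bases from it, and capitals mark the run of C and T that covers the start. Rps7, Rpl19, Rpl34 and Rpl17 are among the members with the smallest p, Rps14, Rps21 and Rplp0 are among those at their lowest in 1 HI library, and the annotated starts of Rps12 and Rps6 have no such run.
Rps7: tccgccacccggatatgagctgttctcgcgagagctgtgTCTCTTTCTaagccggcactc
Rpl19: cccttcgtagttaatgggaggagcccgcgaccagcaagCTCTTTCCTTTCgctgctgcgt
Rpl34: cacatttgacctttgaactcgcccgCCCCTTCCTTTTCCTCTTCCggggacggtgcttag
Rpl17: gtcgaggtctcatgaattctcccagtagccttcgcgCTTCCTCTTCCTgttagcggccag
Rps14: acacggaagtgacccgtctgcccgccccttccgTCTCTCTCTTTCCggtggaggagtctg
Rps21: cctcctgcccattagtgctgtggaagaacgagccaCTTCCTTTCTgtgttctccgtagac
Rplp0: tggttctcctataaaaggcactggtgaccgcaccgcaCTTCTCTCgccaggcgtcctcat
Rps12: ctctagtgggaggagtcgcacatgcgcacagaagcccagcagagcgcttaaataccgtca
Rps6: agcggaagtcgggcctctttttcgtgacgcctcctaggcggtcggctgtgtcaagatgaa
In GRCr8 these lie at chr6:50999426-50999485 for Rps7 (minus strand), chr10:83519024-83519083 for Rpl19 (plus), chr2:221962264-221962323 for Rpl34 (minus) and chr18:70856236-70856295 for Rpl17 (plus). Rps14 lies at chr18:56498220-56498279 (plus), Rps21 at chr3:187723998-187724057 (plus) and Rplp0 at chr12:46718371-46718430 (minus). Rps12 lies at chr1:23500035-23500094 (plus) and Rps6 at chr5:106420521-106420580 (minus).

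Other short motifs were counted on both strands of the same 300-base windows. CCGGAA, the core letters of ETS family sites, was in 50.8% of the members' windows and 5004 of the 33465 windows, and GGGCGG, the core letters of Sp1 sites, in 57.4% and 33.1%. AANATGGC was in 14.8% and 6.97%; its last letters can overlap a start codon, since the windows reach into the transcripts. The 23 members with a C and then at least 4 C or T at the start had a median log2 fold change of -0.24, and the 38 other members with a window had a median of -0.23. A match describes letters in a window and is not a measured site.

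Total counts ranged from 7354416 to 9476656 per library, of which the 79 members held from 83559 to 157665 counts. The libraries differed in ribosomal RNA, from 0.406% to 25.5% of the counts, and HI4 (0.406%) and LI3 (0.418%) had the least. Neuron markers were detected in every library, at a summed 4457 to 11510 CPM (counts scaled to a common library size). The striatal genes Drd2, Ppp1r1b, Adora2a and Rgs9 summed to 489 CPM in LI2 and to between 119 and 162 CPM in the other 7 libraries.

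Each of the 79 ribosomal protein genes was estimated lower in HI than in LI, as were 51.5% of all 11631 tested genes. The differences were small and similar in size. The median log2 fold change, HI minus LI, was -0.23, a change of -14.9%, and single genes ranged from -0.36 in Rpl17 to -0.05 in Rps27l. The median over all tested genes was -0.01. By the quasi-likelihood test of edgeR with a threshold of 0.1 on adjusted p, none of the 79 was called, and neither was any other gene (0.0% of those tested; smallest adjusted p = 1.00). DESeq2 called 38 genes (0.327%), none of them a member. At an unadjusted p under 0.05 in edgeR there were 14 members, all lower in HI, against 1.09% of all tested genes lower and 4.16% in either direction. With a covariate for ribosomal RNA share the count was 29 (2.21% of all genes lower). Fisher's exact test on counts summed within a group, which takes no account of the spread between libraries, called 78 members (44.0% of all genes lower). The quasi-likelihood count of 14 became 6 without HI1, 8 without HI3, and 4 without LI1 or without LI4. The share of all genes at that p is not given for these fits, so the lower counts are not read as a result about the members. The members do not count as 79 separate observations, since they shared their libraries and varied together: the median correlation of a member with the mean of the others over the 8 libraries was 0.786, and it was above 0.7 in 48 members and below 0 in 8.

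**Figure D1:**
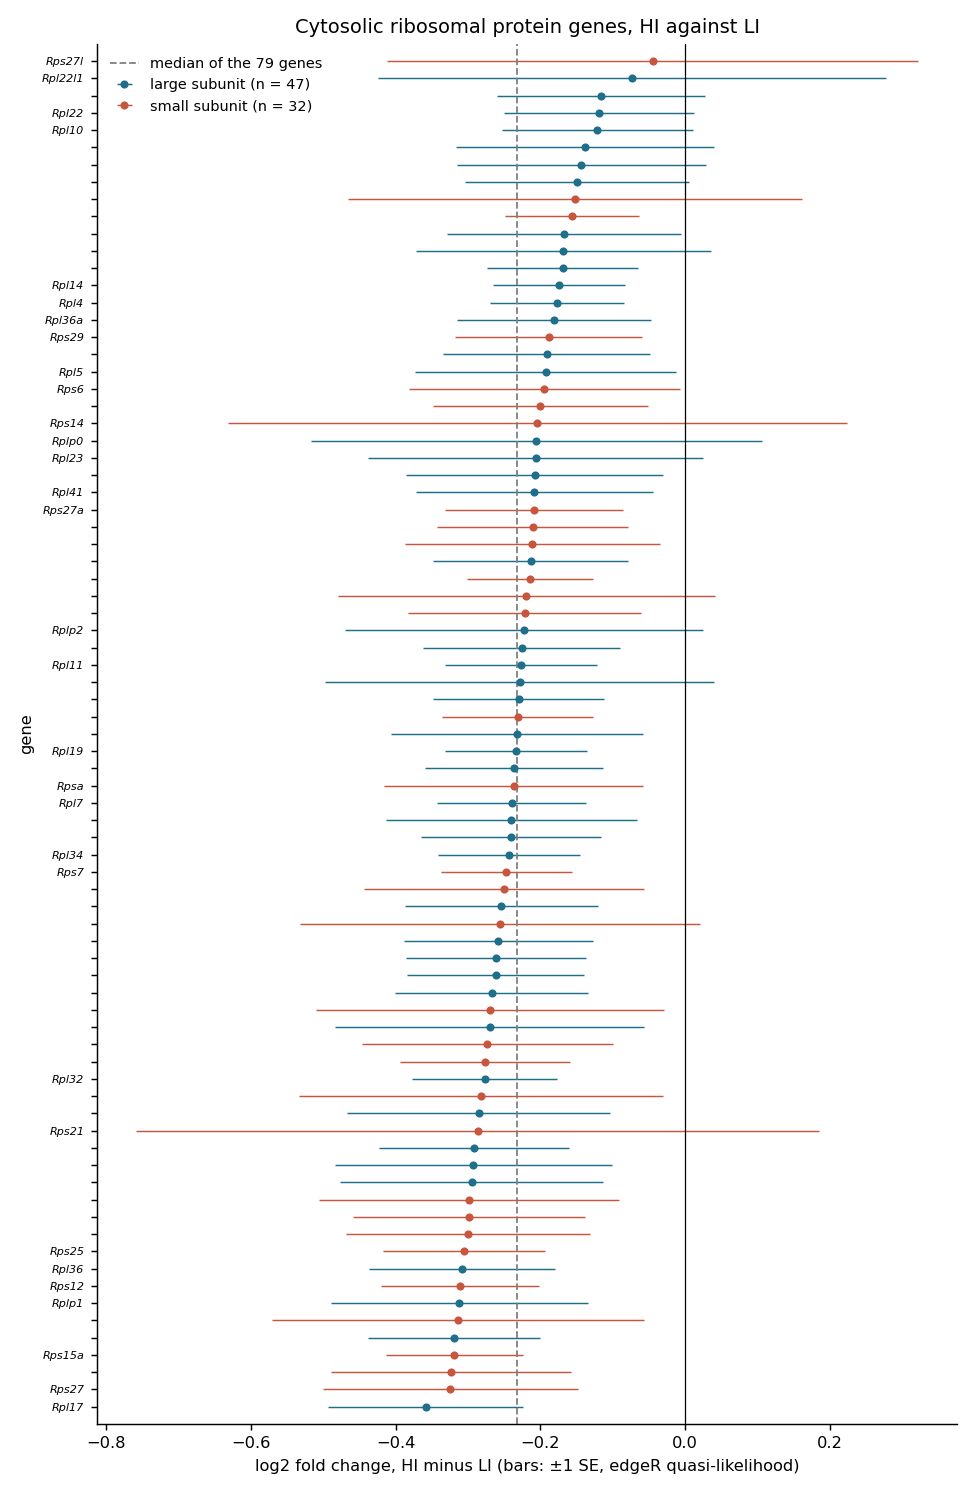
Log2 fold change of each of the 79 ribosomal protein genes (HI minus LI, x axis; points are edgeR estimates, bars 1 SE either side), ordered by value and coloured by subunit, with names only for genes whose single values are given in the text. Every estimate lies below 0, around the median of -0.23, while most bars are wide relative to the differences among genes.

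The HI and LI libraries did not overlap in 11 members, all with HI below, against 1.14% of all tested genes with HI below. Rps15a had the smallest p of all members (0.00709 unadjusted, edgeR). Its level was 109, 113, 114 and 119.5 CPM in HI1 to HI4, and 141, 131, 153 and 143 CPM in LI1 to LI4. The HI values lay close together and below each LI value, a log2 fold change of -0.32 ± 0.09 (SE). Rps12 stood at 126, 135, 119 and 107 CPM in HI1 to HI4 and at 165, 138, 147 and 155 CPM in LI1 to LI4. HI2 and LI2 were next to each other there, and the log2 fold change was -0.31 ± 0.11. Rps25, which takes part in initiation from viral internal entry sites, stood at 136, 151, 155 and 120.1 CPM across HI and 176, 163, 169 and 188 CPM across LI. HI3 and LI2 were the nearest libraries of the groups, and the log2 fold change was -0.31 ± 0.11.

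Rps7, a small-subunit protein that is also needed to process ribosomal RNA, stood at 277, 286, 274 and 276 CPM in HI1 to HI4. In LI1 to LI4 it stood at 340.1, 303, 339.5 and 337 CPM. The HI libraries varied little (278 ± 5.32 CPM, SD, n = 4), LI2 was the low value of its group, and the log2 fold change was -0.25 ± 0.09.

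In the large subunit, the clearest separation was in Rpl32, Rpl34, Rpl19, Rpl7, Rpl14 and Rpl4. Rpl32 stood at 180, 184, 164 and 172 CPM in HI1 to HI4, and at 231, 189, 212 and 216 CPM in LI1 to LI4. LI2 lay nearest to the HI libraries, and the log2 fold change was -0.28 ± 0.10. Rpl34 stood at 81.0, 89.9, 73.8 and 85.1 CPM across HI and 96.0, 99.1, 98.7 and 96.6 CPM across LI. The 4 LI values of Rpl34 lay within a few CPM of each other, and the log2 fold change was -0.24 ± 0.10. Rpl19 stood at 273 ± 18.1 CPM (SD, n = 4) in HI, against 320.5 ± 19.6 CPM (SD, n = 4) in LI. Rpl7 stood at 185 ± 17.6 CPM in HI and at 218 ± 9.58 CPM in LI. In both genes every HI library was below every LI library. Rpl14 and Rpl4, the latter with a loop that lines the exit tunnel, had the smaller log2 fold changes of -0.17 ± 0.09 and -0.18 ± 0.09. Rpl17 (-0.36 ± 0.13) and Rpl36 (-0.31 ± 0.13) had larger differences than these, but their HI and LI values overlapped.

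**Figure D2:**
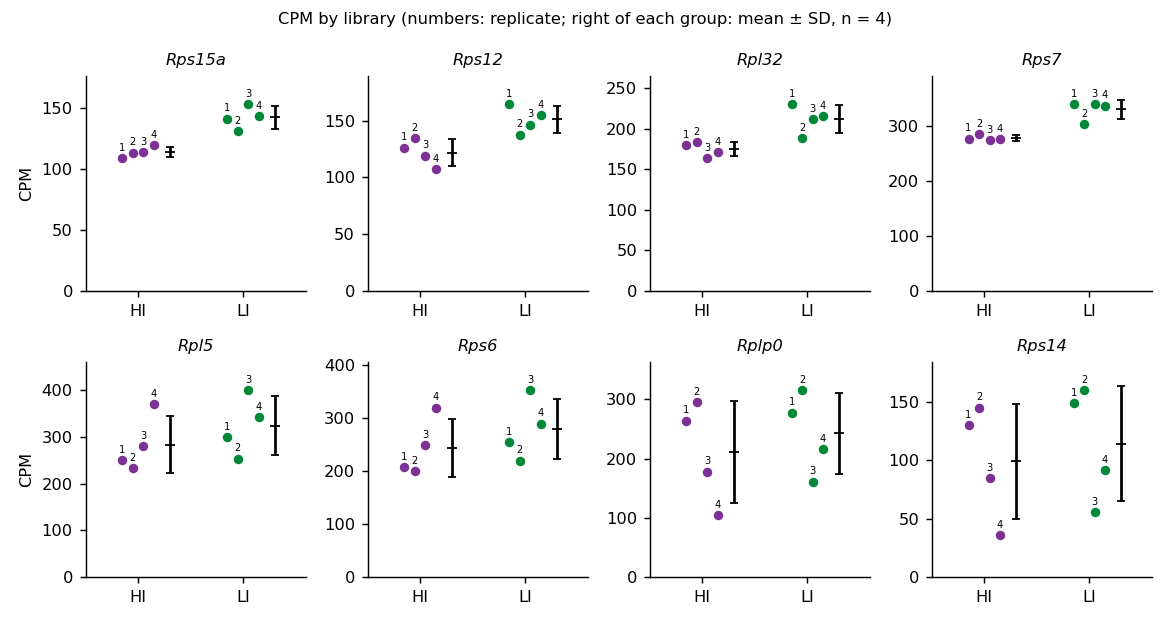
CPM of 8 ribosomal protein genes in each library (y axis from 0; points are libraries with their replicate number, and the bar right of each group is mean ± SD, n = 4). In the upper row all HI libraries lie below all LI libraries; in the lower row the groups overlap, and HI4 and LI3 stand high in Rpl5 and Rps6 and low in Rplp0 and Rps14.

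The P stalk is the arm of the large subunit that recruits elongation factors, made of Rplp0 with Rplp1 and Rplp2. Rplp1 stood at 368, 338, 342 and 219 CPM in HI1 to HI4 and at 469, 359, 327 and 418 CPM in LI1 to LI4. HI4 was the lowest library, and LI2 and LI3 lay inside the HI range (log2 fold change -0.31 ± 0.18, or -0.17 without HI4). Rplp0 ranged from 105 to 296 CPM in HI and from 161 to 316 CPM in LI, with HI4 and LI3 the lowest of their groups. Its log2 fold change of -0.21 ± 0.31 was 0.02 without HI4, -0.13 without HI3 and -0.05 without LI2, and -0.33, -0.42 and -0.36 without HI1, HI2 or LI3. Rplp2 differed by -0.22 ± 0.25, by -0.04 without HI4, -0.09 without LI1 and -0.37 without LI3.

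Rpl5 and Rpl11 form a particle with 5S RNA that also binds the p53 regulator Mdm2. Rpl11 stood at 129.8, 134, 127 and 149.5 CPM across HI and 162, 140.4, 173 and 158 CPM across LI, where HI4 lay above LI2 and no other pair overlapped (log2 fold change -0.23 ± 0.11). Rpl5 stood at 250, 234, 281 and 371 CPM across HI and 299, 254, 401 and 344 CPM across LI. Here HI4 and LI3 were the highest of their groups, the opposite of Rplp0, and the log2 fold change was -0.19 ± 0.18. It was -0.35 without HI4 and -0.29 without LI2, but -0.11 without HI2 and -0.07 without LI3. Rps6, the small-subunit protein phosphorylated by S6 kinase, followed the order of Rpl5, with HI4 at 319 CPM and LI3 at 353 CPM above the rest of their groups (-0.19 ± 0.19). Its difference was -0.35 without HI4 and -0.29 without LI2, and -0.12, -0.11 and -0.06 without HI1, HI2 or LI3. Rpsa, also known as a laminin receptor, differed by -0.24 ± 0.18 and by -0.08 without HI4. Rps27a, made as a fusion with ubiquitin, differed by -0.21 ± 0.12 and by -0.12 without LI3. Rpl10, which sits near the peptidyl transferase centre, differed by -0.12 ± 0.13, by -0.22 without HI2, -0.06 without HI4 and -0.07 without LI2.

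Levels of different genes were compared as TPM rescaled to leave out ribosomal RNA, which is per length. Rpl41, Rps29 and Rplp1 were the most abundant members at 2266, 2188 and 1954 rescaled TPM over the 8 libraries. Rps27l, Rpl22l1 and Rpl36a were the least abundant, at 11.8, 74.9 and 228 rescaled TPM. Rpl41, whose product is a very short peptide, stood at 307, 289.6, 307 and 417 CPM across HI and 385, 295, 465 and 381 CPM across LI (log2 fold change -0.21 ± 0.16), and HI4 exceeded all LI libraries but LI3. The Rpl41 difference was -0.34 without HI4, -0.31 without LI2 and -0.10 without LI3. The 2 paralogs among the members were far below their namesakes and had wide errors. Rpl22l1 differed by -0.07 ± 0.35 and its namesake Rpl22, at 270 rescaled TPM, by -0.12 ± 0.13. Rps27l, a p53 target, differed by -0.05 ± 0.37 and Rps27, at 788 rescaled TPM, by -0.32 ± 0.18. Without HI4 the estimate for Rps27 was -0.19. Rpl22 stood at -0.18 without HI4 and -0.19 without LI2, and at -0.05 without HI2 and -0.07 without LI3. Without HI4 the estimates were 0.09 for Rpl22l1 and 0.17 for Rps27l, so no direction is read for either paralog.

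Summed over the members, ribosomal proteins took 1.48%, 1.52%, 1.33% and 1.19% of the counts other than ribosomal RNA in HI1 to HI4. In LI1 to LI4 they took 1.77%, 1.63%, 1.53% and 1.66%. Every HI library lay below every LI library on this share, HI2 and LI3 being nearly equal, and the means were 1.38% ± 0.154 (SD, n = 4) for HI, against 1.65% ± 0.0973 (SD, n = 4) for LI. On log2 CPM centred on each gene's mean, the mean over members was 0.00, 0.02, -0.14 and -0.36 for HI1 to HI4. It was 0.25, 0.11, 0.00 and 0.12 for LI1 to LI4. HI4 was the lowest of the 8 libraries in 46 of 79 members, 24 large and 22 small, and LI1 the highest in 37. Without HI4 the median log2 fold change of the members was -0.17, with 74 lower, against 50.5% of all genes tested in that fit, and 16 had an unadjusted p under 0.05, against 1.87% of all genes.

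**Figure D3:**
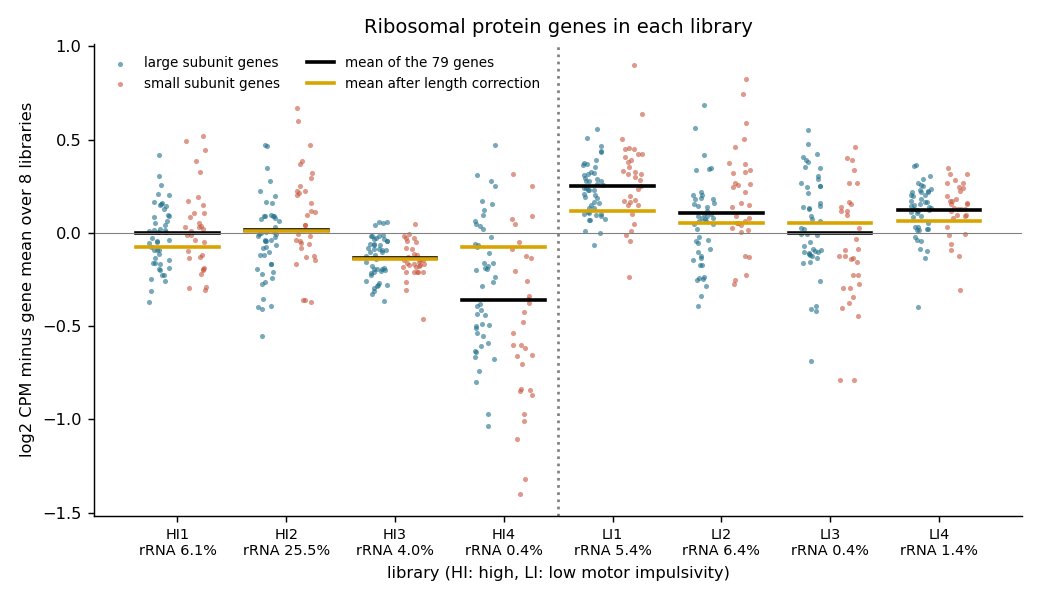
Log2 CPM of each ribosomal protein gene minus its mean over the 8 libraries (y axis), by library, with the percentage of ribosomal RNA under each name; black bars are means over the 79 genes and yellow bars the means after correction for transcript length. HI4 has both the lowest black bar, at -0.36, and the widest scatter among genes.

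HI4 and LI3, the libraries with the least ribosomal RNA, shared an internal rearrangement of the ribosomal protein transcripts. The summed neuron markers were also highest in these libraries, at 11510 CPM in HI4 and 9091 CPM in LI3. The other 6 held 4457 to 6610 CPM. Summed excitatory neuron markers went the other way and were lowest there, at 1340 CPM in HI4 and 1401 CPM in LI3. They stood at 1468 to 1954 CPM in the other 6. The part of either list in the result was not tested. Rps14 shows the rearrangement (named, as are Rps21 and Rpl23, after its values were seen). It stood at 130.1, 145, 84.8 and 36.1 CPM in HI1 to HI4, and at 149, 160.3, 55.3 and 91.7 CPM in LI1 to LI4. Rps21 stood at 97.1, 109.9, 50 and 27.6 CPM across HI and 129, 122, 39.8 and 55.7 CPM across LI. Both genes were lower in HI4 and LI3 than in the replicate 1 and 2 libraries, with numbers 3 of HI and 4 of LI in between. Rpl23 went the other way, at 116, 114, 135 and 207 CPM across HI and 143, 123, 219 and 175 CPM across LI. Across the 79 members, the deviation of HI4 from the other HI libraries and that of LI3 from the other LI libraries correlated with Pearson r = 0.966 and Spearman rho = 0.971. Across the 11552 other genes r was 0.781, and genes within these libraries are not independent replicates.

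Deviations of HI4 and LI3 had the same sign in 74 of 79 members. Both libraries lay more than 0.5 log2 units below the rest of their group in 14 members, among them Rplp0, Rplp2, Rps2, Rps10, Rps14, Rps16, Rps18, Rps19, Rps21 and Rps28, and 10 of the 14 were small-subunit genes. Both lay more than 0.25 log2 units above in 10 members: Rpl5, Rpl23, Rpl23a, Rpl31, Rpl35, Rpl41, Rps6, Rps24, Rps26 and Rps27a. Among members neither deviation followed transcript length (r = 0.00 for HI4 and 0.07 for LI3). HI4 was nevertheless below LI3 in 78 of 79 members, with a median difference of -0.34 in log2 CPM.

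**Figure D4:**
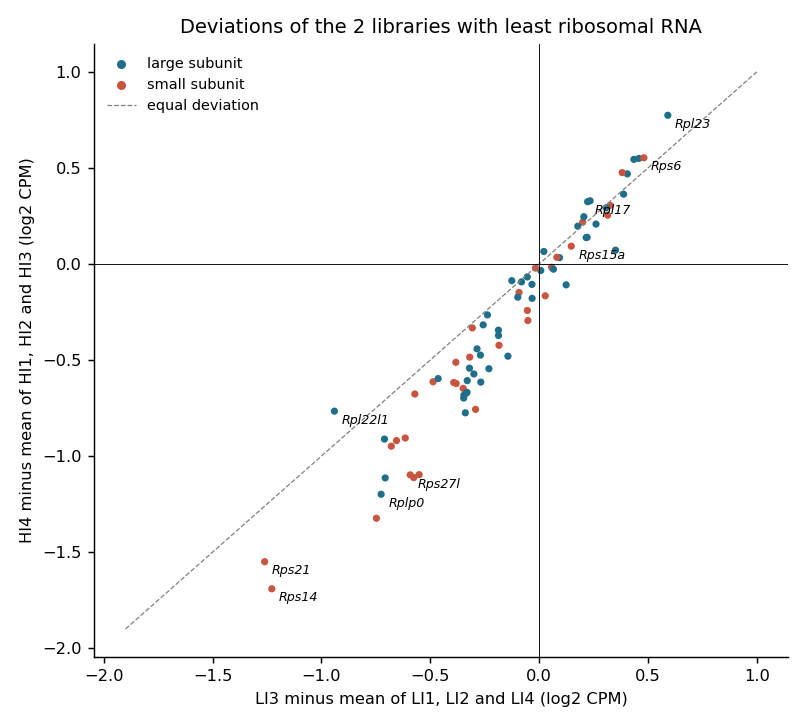
Deviation of HI4 from the mean of the other HI libraries (y axis) against that of LI3 from the other LI libraries (x axis), in log2 CPM, for the 79 genes by subunit. The points follow one line from Rps14 and Rps21 at the lower left to Rpl23 at the upper right, mostly below the dashed line of equal deviation.

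Without HI4 and LI3 the comparison of the other 6 libraries gave a median log2 fold change of -0.22, with 78 of 79 members lower (51.8% of all genes in that fit) and 17 at an unadjusted p under 0.05 (1.5% of all genes, lower in HI). When the 8 libraries were fitted with a term for a ribosomal RNA share under 1%, the median was -0.24, all 79 were lower and 46 had an unadjusted p under 0.05, against 2.98% of all genes lower at that p. None passed an adjusted p of 0.1 in either edgeR fit, and both fits were chosen after seeing the data. Within replicates 1 and 2 the median difference was -0.19 in log2 CPM with 78 members lower, and within replicates 3 and 4 it was -0.30 with 78 lower.

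The large and small subunits differed from LI by similar amounts. The median log2 fold change was -0.23 over 47 large-subunit genes and -0.25 over 32 small-subunit genes, all lower in each set. Without HI4 these medians were -0.18 and -0.15. The large minus small difference of 0.02 was smaller than the SD of 0.129 between replicates of a group, and its sign turned without HI4 (-0.03) or LI2 (-0.02). It was 0.05 without HI1, 0.09 without HI2 and 0.06 without LI3. At an unadjusted p under 0.05 there were 8 large-subunit and 6 small-subunit genes. Summed rescaled TPM of the large subunit over that of the small was 1.54, 1.44, 1.62 and 1.77 for HI1 to HI4, against 1.54, 1.43, 1.71 and 1.61 for LI1 to LI4. This ratio did not separate HI from LI (1.595 ± 0.137 and 1.57 ± 0.119, SD, n = 4 each), and it was highest in HI4 and LI3, where 10 of the 14 most reduced members belonged to the small subunit.

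Ribosomal protein transcripts are short, from 245 to 1933 bases with a median of 564, against 2198 bases over all tested genes, and the median of other short transcripts was below 0 too (84.1% of those under 500 bases were lower in HI). Among the other genes the median log2 fold change was -0.16 under 500 bases, -0.10 from 500 to 750, -0.09 from 750 to 1000, -0.06 from 1000 to 1500 and 0.10 over 4000 bases. The members' medians in the first 4 of these bins were -0.25, -0.25, -0.20 and -0.21, from 27, 30, 13 and 7 genes, each below that of the other genes of the same length. The slope of log2 CPM on length, per doubling and without the members, was 0.13 in HI4 and -0.08 in LI1, and between -0.03 and 0.01 in the other 6 libraries. HI4 was the library with the relatively longest transcripts and the lowest ribosomal protein level, and LI1 the reverse.

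**Figure D5:**
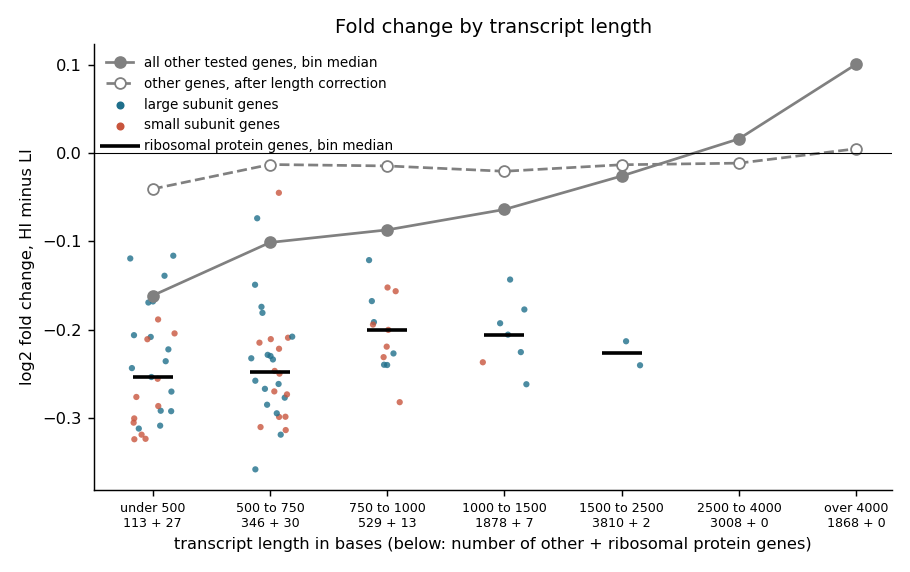
Log2 fold change (HI minus LI, y axis) by bins of transcript length in bases (x axis, with the number of other and ribosomal protein genes under each bin). Grey points are medians of all other genes before (filled) and after (open) the length correction, coloured points are single ribosomal protein genes before it, and black bars are their medians, which lie below the filled points in each of the 5 bins that hold members.

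With a length trend for each library, fitted on genes other than the members and entered as an offset in edgeR, the members' median moved from -0.23 to -0.15. Of the 79 members 74 remained lower in HI, against 53.0% of all genes in that fit, and 0 had an unadjusted p under 0.05 in either direction, against 3.5% of all genes (0.911% lower in HI; 0 by adjusted p). The medians were -0.14 for the large and -0.16 for the small subunit. Rps15a went from -0.32 to -0.19 ± 0.14, Rps12 from -0.31 to -0.21 ± 0.10, Rpl32 from -0.28 to -0.16 ± 0.12 and Rpl17 from -0.36 to -0.25 ± 0.19. The corrected mean over members was -0.08, 0.01, -0.14 and -0.08 for HI1 to HI4, against 0.12, 0.05, 0.05 and 0.06 for LI1 to LI4. HI4, the outermost library before the correction, then lay inside the range of the other HI libraries, and all HI libraries lay below all LI libraries. The length offset without HI4, chosen after seeing the data, gave a median of -0.16 with 70 members lower, against 54.1% of all genes.

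Other genes of protein synthesis are given for comparison, from fixed lists. Ribosomal proteins that the naming rule does not take had lower values as well, among them Fau, the source of Rps30, by -0.20 ± 0.22, the paralog Rpl36al by -0.13 ± 0.14, and Gnb2l1 (Rack1), a scaffold on the small subunit, by -0.11 ± 0.19. With the length offset Fau stood at -0.11, Gnb2l1 at -0.07 and Rpl36al at 0.0006. Of 17 translation factors with oligopyrimidine messages 15 were lower (median -0.11), or 13 with the length offset (-0.07), among them Eef1a1, the main elongation factor, at -0.11 ± 0.12 and Tpt1 at -0.20 ± 0.11. With the length offset Eef1a1 stood at -0.09 and Tpt1 at -0.11. Initiation factors (20 of 30 lower, median -0.04), ribosome biogenesis factors (23 of 32, -0.06) and genes of ribosomal RNA transcription (12 of 16, -0.05) had medians nearer to 0. Genes of mTOR signalling and oligopyrimidine control were split, with 9 of 17 lower and a median of -0.01, Mtor itself, with a transcript of 8538 bases, standing at 0.24 ± 0.11, or 0.09 with the length offset. The mitochondrial ribosomal proteins, which serve a separate ribosome, were lower in 59 of 69 (median -0.11, or -0.05 with the length offset), and proteasome subunits in 36 of 46 (-0.08, or -0.02). None of these genes passed an adjusted p of 0.1 in edgeR.

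Markers of other cells are given because fewer cells of a type and less RNA per cell cannot be told apart in a homogenate. All 6 microglia markers were lower in HI, and their summed level was 199 to 234 CPM in HI and 248 to 262 CPM in LI, without overlap and with no marker at 0. All 5 oligodendrocyte markers were lower too, at a summed 1765 to 1937 CPM in HI and 1503 to 5902 CPM in LI, where LI2 was the highest and LI1 the lowest of the 8 libraries. Interneuron markers were lower in 5 of 5, with overlapping sums of 564 to 650 and 627 to 851 CPM. Excitatory neuron markers were higher in 3 of 4, with overlapping sums of 1340 to 1954 CPM in HI and 1401 to 1652 CPM in LI. The striatal genes were lower in 4 of 4, with overlapping sums of 119 to 162 CPM in HI and 137.5 to 489 CPM in LI. Astrocyte and endothelial sums overlapped between the groups, as did those of oligodendrocyte precursor markers, which were higher in 2 of 3. All 3 meningeal markers tested of 4 were higher, with HI1 the highest library at a summed 415 CPM. Their sums overlapped, at 31.0 to 415 CPM in HI and 13.5 to 76.0 CPM in LI. Blood genes were higher in 3 of 3, with overlapping sums of 46.9 to 275 CPM in HI and 55.8 to 153 CPM in LI, and HI1 again the highest. The part of these cells in the ribosomal protein difference was not tested.

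By Pearson correlation over the 8 libraries with the mean of the members, the 5 most similar other genes were Ttc5 (r = 0.980), Dalrd3 (0.980), Aldoc (0.976), RT1-DMb (0.976) and Tmem14c (0.975). All 5 were lower in HI, from -0.17 ± 0.12 in Tmem14c to -0.47 ± 0.24 in RT1-DMb. They were the highest of 11552 genes by this measure, and the correlations include the low value of HI4.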

How the data were processed

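The deposited expected counts are the authors' estimates per gene, need not be whole, and stand beside TPM, FPKM and transcript length, per the file headers. The submitters' processing notes list Bowtie2 2.1.0. The deposited TPM was used for levels (rescaled without ribosomal RNA) and in alternatives, and the deposited FPKM values in no test. The quantifier, genome build, annotation and strand setting were not given in the sources used here. Expected counts were not whole (tolerance 1e-09) in at least 1 library for 14 members, such as Rpl12, Rpl19, Rpl27a, Rpl28, Rpl17 and Rps10, so reads shared with near-identical copies may be split there. The deposited accession of Rpl37 is Rpl37l1 in RefSeq GRCr8; 77 of 79 members matched that table by accession, 76 with the same symbol.

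Counts were rounded, filtered with filterByExpr (minimum count 10, total 15), scaled by TMM and tested by the quasi-likelihood test of edgeR 4.0.16 in R 4.3.3, HI against LI, on 11631 genes, with Benjamini-Hochberg adjustment and a threshold of 0.1, the alpha in the design text. All 79 members passed the filter. That text names Fisher's exact test, which was run as an alternative because it ignores the spread between libraries. The standard error is the absolute log2 fold change over the square root of F; CPM uses TMM-scaled library sizes and log2 CPM a prior count of 2. The length offset is a smooth (mgcv 1.9.3) of log2 CPM deviation on log2 length per library. DESeq2 1.42.0, limma 3.58.1, other scalings and filters, covariates and left-out libraries were alternatives. The scripts were tested on simulated data. No 2 libraries of a group agreed within sampling noise (chi-square per degree of freedom at least 14.5).

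Named members are the 10 with the smallest p, those without overlap, the 3 highest and 3 lowest by TPM, paralogs with their namesakes, and Rpsa, Rps6, Rps27a, Rplp0 to Rplp2, Rpl5, Rpl11 and Rpl10; of other lists, those with the smallest p or highest TPM. Some genes that meet the rule are not reported here. The members, lists and rule were chosen with earlier results of these data known.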

Additional observations from a re-analysis of the deposited data

Results flagged for a closer look

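In 2 of 68 groups of 4 libraries checked, 1 library lay apart from the others; chance flags about 1 in 20. Rps7 was low in LI2 at 303 CPM (the other LI libraries at 337 to 340). Rpl41 was high in HI4 at 417 CPM.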

How the results depend on the processing

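Over 27 alternatives the median log2 fold change of the members stayed below 0, and between 70 and 79 of 79 were lower in HI. With single libraries left out it ranged from -0.28 to -0.17 over all members (74 to 79 lower), -0.26 to -0.18 in the large and -0.33 to -0.15 in the small subunit, and from -0.03 to 0.09 for large minus small; 4 to 19 members had an unadjusted p under 0.05 and 0 were called. That count was 14 in edgeR's quasi-likelihood test (1.09% of all tested genes lower in HI at that p). It was 29 with the ribosomal RNA share as covariate (2.21%) and 46 with the ribosomal RNA block (2.98%). With the length offset (0.911%) or the length and level offset it was 0. The count was 8 in edgeR's exact test, 33 with library totals only and 5 with the length offset and HI4 left out. For these settings, the length and level offset, the replicate block and single libraries other than HI4, the share of all genes is not given here. Their counts are therefore not read as results about the members. Fisher's exact test on counts summed per group called 6596 genes, 78 of them members (44.0% of all genes lower), and gave 78 at an unadjusted p under 0.05. DESeq2 called 38 genes and edgeR's exact test 1, with 0 members. The large-subunit median was -0.34 both with Fisher's test and with library totals only, where the median of all genes moved to -0.11 and -0.12; relative to it the members stood at -0.23 in both. Estimates above 0 were found for 4 genes. Rpl22 stood at 0.0097 with the length offset and 0.0119 with the length and level offset. Rpl22l1 stood at 0.0158 and 0.0103 with these, at 0.11 with the length offset and HI4 left out, and between -0.27 and 0.17 with single libraries left out (above 0 without HI3, HI4, LI1 or LI2). Rps27l stood at 0.0156 and 0.0209 with the offsets, at 0.0377 without HI4 and LI3, at 0.18 with the length offset and HI4 left out, and between -0.27 and 0.17 with single libraries left out (above 0 without HI3, HI4 or LI2). Rplp0 stood at 0.0271 with the length offset and HI4 left out, and between -0.42 (without HI2) and 0.0170 (without HI4) with single libraries left out. The cause was not tested. The labels do not say whether replicate numbers pair the libraries. Correlations of same-numbered deviations were 0.215, 0.536, -0.05 and 0.06. These cannot decide it, since libraries of different numbers ranged from -0.591 (HI4 with LI2) to 0.782 (HI4 with LI3). The replicate block gave 18 members at an unadjusted p under 0.05 in edgeR's quasi-likelihood test, 79 lower, 0 called and a median of -0.25. The median SE of a member's log2 fold change, from 4 libraries a group, was 0.15.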
